A study of Mus musculus with 3 samples.

Results

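The enzymes that make leukotrienes and prostaglandins from arachidonic acid were followed in granulocyte progenitors, the bone marrow cells that give rise to neutrophils. The group held 10 genes, taken by symbol from the 24421 gene symbols measured in each library. These are Pla2g4a for arachidonate release, Alox5, Alox5ap, Lta4h, Ltc4s and Alox15 for the lipoxygenase and leukotriene branch, and Ptgs1, Ptgs2, Ptges and Hpgds for the prostanoid branch. RNA was sequenced from progenitors sorted by flow cytometry out of the marrow of female mice, with 1 library in each of 3 groups. The IRF8-deficient library came from C57BL/6 mice (H-2b) lacking IRF8, a transcription factor of the myeloid lineage. The 4T1-TB library came from F1 semi-syngeneic mice (H-2b/d) carrying orthotopic 4T1, a mouse mammary tumor line. The NTB library came from mice of that F1 strain without a tumor. The IRF8-deficient mice are of another strain than both other groups, so genotype and strain cannot be told apart, and all 3 groups share sex, tissue and sort. The sources used here do not give the mouse age, the number of mice per library or the Irf8 allele.

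Cytosolic phospholipase A2 frees arachidonic acid from membrane phospholipids. On the leukotriene side, 5-lipoxygenase (Alox5) takes it up with the help of its membrane partner FLAP (Alox5ap) and makes the unstable leukotriene A4, which Lta4h turns into the neutrophil attractant leukotriene B4 and Ltc4s into the cysteinyl leukotrienes. On the prostanoid side, the cyclooxygenases Ptgs1 and Ptgs2 make prostaglandin H2, from which Ptges makes prostaglandin E2 and Hpgds prostaglandin D2. Neutrophils are a known source of leukotriene B4, mast cells of cysteinyl leukotrienes and prostaglandin D2.

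The RPKM values (reads per kilobase of gene model scaled to library size) were the authors'. Whole reads could be recovered from them, and summed to 36181682 in the IRF8-deficient, 23408119 in the 4T1-TB and 42349446 in the NTB library. With 1 library per group no spread between mice was measured, so no test was made. Every interval below is a 95% interval of the read counts, covers counting error only, and says nothing on mouse to mouse variation. Irf8 itself stood at 13.7 RPKM in the IRF8-deficient, 8.605 in the 4T1-TB and 43.8 in the NTB library. Which exons the allele removes is not given, so that value does not check the label. The IRF8-deficient library stood apart from the others. The ribosomal RNA precursor Rn45s took 13.7% of its reads, against 6.32% in the 4T1-TB and 1.79% in the NTB library, and the 20 highest genes took 30.7% of its reads, against 15.7% and 10.5%. All 9 granulocyte progenitor markers (Mpo, Elane, Prtn3, Ctsg, Cebpe, Gfi1, Kit, Cd34, Csf3r) reached 1 RPKM in every library.

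The 250 bases upstream of the RefSeq start sites of the 10 enzyme genes were read (GRCm38.p6, the assembly of mm10), and 8 of the 10 genes had a window. Alox5ap and Alox15 had none. The windows of Alox5 and Ptges, which differed most between libraries, are printed with those of the cyclooxygenase pair Ptgs1 and Ptgs2, of which one was abundant and the other near 0. Capitals mark a GC box (GGGCGG), the core of PU.1 sites (GAGGAA, where PU.1 is the Ets factor that binds DNA together with IRF8) or a C/EBP-like motif (TTNCNNAA), on either strand. Each sequence runs 5′ to 3′ on the strand of its gene.
Alox5, chr6:116461179-116461428, minus strand: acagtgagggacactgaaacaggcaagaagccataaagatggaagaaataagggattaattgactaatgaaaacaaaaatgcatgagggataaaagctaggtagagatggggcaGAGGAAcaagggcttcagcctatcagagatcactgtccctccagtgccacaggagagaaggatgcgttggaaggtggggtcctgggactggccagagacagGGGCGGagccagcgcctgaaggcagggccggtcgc
Ptges, chr2:30903298-30903547, minus strand: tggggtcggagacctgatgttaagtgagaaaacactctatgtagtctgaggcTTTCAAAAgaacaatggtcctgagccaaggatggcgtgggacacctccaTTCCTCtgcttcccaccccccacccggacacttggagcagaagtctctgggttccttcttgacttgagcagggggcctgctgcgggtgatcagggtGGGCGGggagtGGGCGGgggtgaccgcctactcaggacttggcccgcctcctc
Ptgs1, chr2:36230176-36230425, plus strand: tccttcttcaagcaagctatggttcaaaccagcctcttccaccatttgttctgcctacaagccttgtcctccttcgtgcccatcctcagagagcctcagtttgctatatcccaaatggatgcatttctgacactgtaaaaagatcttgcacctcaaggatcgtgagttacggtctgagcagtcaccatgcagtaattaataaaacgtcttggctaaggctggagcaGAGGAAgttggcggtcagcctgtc
Ptgs2, chr1:150099781-150100030, plus strand: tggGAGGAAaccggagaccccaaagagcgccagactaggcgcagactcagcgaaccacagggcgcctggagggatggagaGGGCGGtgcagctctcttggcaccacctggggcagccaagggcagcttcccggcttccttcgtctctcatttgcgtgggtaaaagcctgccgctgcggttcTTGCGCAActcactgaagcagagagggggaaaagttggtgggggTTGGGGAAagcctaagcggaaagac
The Alox5 window held 1 GC box and 1 PU.1 core, and the Ptges window 2 GC boxes, 1 PU.1 core and 1 C/EBP-like motif. The Ptgs1 window held 1 PU.1 core alone, and the Ptgs2 window 1 GC box, 1 PU.1 core and 2 C/EBP-like motifs. The PU.1 core was present in 6 of the 8 genes with a window, against 23.3% of the 32851 windows of all genes. Besides Alox5 and Ptges it was in Lta4h and Ptgs1, which differed by less than 2-fold, and in Ptgs2 and Hpgds, which stayed near 0. The windows of Ltc4s and Pla2g4a held none. Whether the match bears on the levels was not tested. Genes are counted here but windows in the shares, and Pla2g4a had more than 1 window. The GC box was present in 3 of the 8 genes, against 32.7% of all windows, and the C/EBP-like motif in 4, against 36.8%. None of the 8 held the tandem GAAA motif of IRF sites, which 2.98% of all windows hold. No motif overlapped one of another kind in these windows, but the 2 C/EBP-like matches of Pla2g4a overlapped each other. A match is a run of letters and not a measured binding site, and the absence of a match says nothing of any factor.

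The 10 genes spanned a wide range of levels and kept a similar order in every library. Lta4h was the highest and Alox5ap next in all 3. Ptgs1 followed, and Ptgs2, Ltc4s, Alox15 and Hpgds stayed under 1 RPKM in every library. Alox5 and Pla2g4a traded places, with Alox5 the 4th highest of the 10 and Pla2g4a the 5th in the IRF8-deficient library, against Alox5 the 5th and Pla2g4a the 4th in the 4T1-TB and NTB libraries. In the IRF8-deficient library the interval of Alox5 (80.1 to 84.3 RPKM) ended just below that of Ptgs1 (86.4 to 90.6). The summed level of the 10 genes was 1219 RPKM in the IRF8-deficient, 781 in the 4T1-TB and 727 in the NTB library. Lta4h alone gave 58.8%, 68.1% and 71.6% of that sum in the IRF8-deficient, 4T1-TB and NTB libraries, while Alox5 gave 6.74%, 1.17% and 1.08% in the same order.

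**Figure D1:**
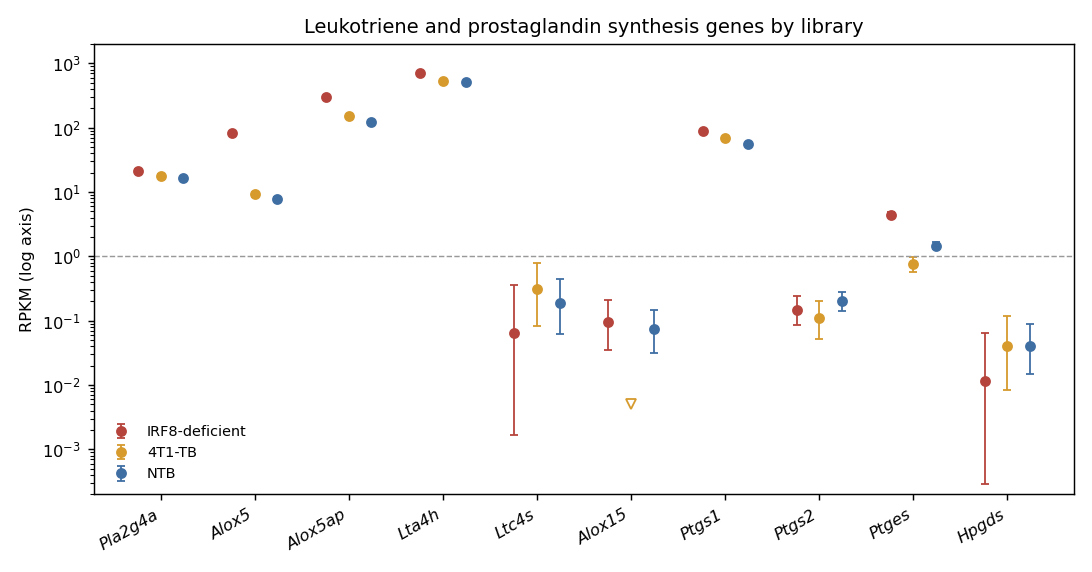
Level of each of the 10 genes (RPKM, log axis) in the IRF8-deficient, 4T1-TB and NTB libraries, 1 point per library, with bars for the 95% Poisson interval of its reads. Lta4h lies between 520 and 717 RPKM and 4 genes lie under 1 RPKM in all 3 libraries, and the open triangle marks Alox15 at 0 reads in the 4T1-TB library. Alox5 stands apart only in the IRF8-deficient library, at 82.2 RPKM.

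Release of arachidonate was represented by Pla2g4a, the cytosolic phospholipase A2, on chromosome 1 (149829618 to 149961290, minus strand, GENCODE M21 on mm10). Pla2g4a was at 21.4 RPKM (1708 reads) in the IRF8-deficient, 17.9 RPKM (1211 reads) in the 4T1-TB and 16.4 RPKM (2239 reads) in the NTB library. Its levels were of similar size in all 3 libraries, highest in the IRF8-deficient one on the authors' scale and lowest there under scaling by summed reads. The ratio was 1.31 (interval 1.23 to 1.39) for IRF8-deficient over NTB and 1.09 (1.02 to 1.17) for 4T1-TB over NTB. Neither reached 2-fold.

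Alox5, the enzyme that commits arachidonate to leukotrienes, lies on chromosome 6 (116410077 to 116461178, minus strand). It stood at 82.2 RPKM in the IRF8-deficient library (6068 reads, interval 80.1 to 84.3), against 9.16 RPKM in the 4T1-TB library (575 reads, 8.43 to 9.94) and 7.87 RPKM in the NTB library (996 reads, 7.38 to 8.37). The IRF8-deficient library was far above both others, which lay close to each other and whose intervals just separate. Alox5 was 10.5-fold higher in the IRF8-deficient than in the NTB library (9.77 to 11.2) and 8.98-fold higher than in the 4T1-TB library (8.24 to 9.79). Between 4T1-TB and NTB the ratio was 1.16 (1.05 to 1.29). Among all symbols Alox5 ranked 805th in the IRF8-deficient library, against 6263rd in the 4T1-TB and 6759th in the NTB library.

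Alox5ap, the membrane protein FLAP that hands arachidonate to 5-lipoxygenase, lies on chromosome 5 (149264767 to 149288153, plus strand). Its level was 304.7 RPKM in the IRF8-deficient, 151 RPKM in the 4T1-TB and 124 RPKM in the NTB library, from 8068, 3405 and 5654 reads. It was abundant in all 3 libraries and highest in the IRF8-deficient one. The ratio was 2.45 (2.37 to 2.53) for IRF8-deficient over NTB, 2.02 (1.94 to 2.10) for IRF8-deficient over 4T1-TB and 1.21 (1.16 to 1.27) for 4T1-TB over NTB. An antisense gene, Gm19719, shares 189 exon bases with Alox5ap, and since nothing in the sources says whether the libraries were stranded, their reads cannot be told apart there.

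Lta4h, which makes leukotriene B4 and also cuts peptides as an aminopeptidase, lies on chromosome 10 (93453411 to 93484875, plus strand). It stood at 717 RPKM in the IRF8-deficient, 532 RPKM in the 4T1-TB and 520 RPKM in the NTB library, among the 129 highest symbols of each. The IRF8-deficient level was the highest on the authors' scale and just below NTB under scaling by summed reads, and the 4T1-TB and NTB levels were close. The ratio was 1.38 (1.36 to 1.398) for IRF8-deficient over NTB, 1.35 (1.33 to 1.37) for IRF8-deficient over 4T1-TB and 1.02 (1.01 to 1.04) for 4T1-TB over NTB, so that neither IRF8-deficient ratio reached 2-fold. Its large read number (at least 24393 per library) makes these intervals narrow without measuring any spread between mice.

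As Alox5 differed more than its partners, the proportions within the branch differed between libraries. The level of Alox5ap was 3.71 times that of Alox5 in the IRF8-deficient library, against 16.5 times in the 4T1-TB and 15.8 times in the NTB library. The level of Lta4h was 8.73 times that of Alox5 in the IRF8-deficient library, against 58.0 and 66.1 times in the 4T1-TB and NTB libraries. The 4T1-TB and NTB proportions lay close together, and the IRF8-deficient library held more 5-lipoxygenase RNA per unit of FLAP and of hydrolase RNA. These proportions within a library do not depend on how it is scaled.

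Ltc4s, the dedicated leukotriene C4 synthase, had 1 read in the IRF8-deficient, 4 in the 4T1-TB and 5 in the NTB library, or 0.0651, 0.306 and 0.190 RPKM. Its intervals overlapped in all pairs of libraries. An antisense gene, Gm26542, shares 268 exon bases with it, so even these few reads are uncertain. Mgst2, a microsomal glutathione transferase that can also make leukotriene C4, stood at 161 RPKM in the IRF8-deficient, 73.5 RPKM in the 4T1-TB and 90.4 RPKM in the NTB library.

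Alox15, the 12/15-lipoxygenase of eosinophils and resident macrophages, had 6 reads in the IRF8-deficient, 0 in the 4T1-TB and 8 in the NTB library. That gave 0.0952 RPKM in the IRF8-deficient and 0.0740 RPKM in the NTB library, and the interval of the 0 reads in the 4T1-TB library reached up to 0.0688 RPKM. The intervals of the 3 levels overlapped, the interval of the ratio of IRF8-deficient over NTB ran from 0.368 to 4.23, and that of IRF8-deficient over 4T1-TB (6 against 0 reads) lay just above 1 at its lower end. Eosinophil markers were mixed in level. The peroxidase Epx was at 0.0285 RPKM in the IRF8-deficient, 0.1004 RPKM in the 4T1-TB and 0.407 RPKM in the NTB library. The summed level of 9 eosinophil markers was 35.5, 12.96 and 17.6 RPKM in the IRF8-deficient, 4T1-TB and NTB libraries, made up in the IRF8-deficient library mostly of Ear2 at 24.1 RPKM. The surface receptor Siglecf gave most of that sum in the others, with 9.86 RPKM in the IRF8-deficient, 12.1 RPKM in the 4T1-TB and 12.9 RPKM in the NTB library, and 2, 3 and 0 of the 9 markers were listed at 0.

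Ptgs1, the constitutive cyclooxygenase, lies on chromosome 2 (36230426 to 36252272, plus strand). It stood at 88.5 RPKM (6622 reads) in the IRF8-deficient, 69.9 RPKM (4447 reads) in the 4T1-TB and 55.7 RPKM (7153 reads) in the NTB library. All 3 libraries held it at a high level, highest in the IRF8-deficient library (in 4T1-TB under scaling by summed reads) and lowest in the NTB library. The ratio was 1.59 (1.54 to 1.64) for IRF8-deficient over NTB, 1.27 (1.22 to 1.32) for IRF8-deficient over 4T1-TB and 1.254 (1.21 to 1.30) for 4T1-TB over NTB, none of them reaching 2-fold. Gm43621 on the other strand shares 148 exon bases with Ptgs1. Platelets and their precursors are rich in this enzyme, and 10 megakaryocyte and platelet markers summed to 2.14 RPKM in the IRF8-deficient, 1.71 RPKM in the 4T1-TB and 1.62 RPKM in the NTB library, with 6, 3 and 2 of them listed at 0.

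Ptgs2, the inducible cyclooxygenase, had 16 reads (0.148 RPKM) in the IRF8-deficient, 10 reads (0.109 RPKM) in the 4T1-TB and 37 reads (0.199 RPKM) in the NTB library. Its 3 intervals overlapped. The level of Ptgs1 was 599, 643 and 279.6 times that of Ptgs2 in the IRF8-deficient, 4T1-TB and NTB libraries, so nearly all cyclooxygenase RNA was Ptgs1.

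Ptges, the inducible microsomal prostaglandin E2 synthase, lies on chromosome 2 (30889471 to 30929863, minus strand). It stood at 4.47 RPKM in the IRF8-deficient library (426 reads, interval 4.06 to 4.92), against 0.753 RPKM in the 4T1-TB library (61 reads, 0.576 to 0.967) and 1.46 RPKM in the NTB library (239 reads, 1.28 to 1.66). The 3 intervals were apart, with the IRF8-deficient library highest and the 4T1-TB library lowest. Ptges was 3.06-fold higher in the IRF8-deficient than in the NTB library (2.60 to 3.60) and 5.94-fold higher than in the 4T1-TB library (4.53 to 7.90). In 4T1-TB it was at 0.515 of the NTB level (0.382 to 0.684). On the scale used for calls this difference was -0.49 and missed the threshold. With the authors' library sizes no other gene of the 6 at 1 RPKM or more was lower in 4T1-TB than in NTB. Under scaling by summed reads Lta4h and Pla2g4a were lower there too. That scaling also brought the Ptges difference between IRF8-deficient and NTB to 0.75 on the scale used for calls, below the threshold.

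Hpgds, the hematopoietic prostaglandin D2 synthase found in mast cells and megakaryocytes, had 1 read in the IRF8-deficient, 3 in the 4T1-TB and 6 in the NTB library, or 0.0116, 0.0410 and 0.0406 RPKM. Its intervals overlapped. The mast cell proteases Tpsab1, Tpsb2, Cma1 and Mcpt4 were listed at 0 in all 3 libraries, and of 12 mast cell and basophil markers 6, 6 and 4 were listed at 0 in the IRF8-deficient, 4T1-TB and NTB libraries, with summed levels of 73.1, 91.1 and 131 RPKM. Most of these sums came from the histidine decarboxylase Hdc, at 54.5, 61.4 and 103.7 RPKM, followed by the basophil protease Mcpt8, at 8.73, 20.4 and 15.7 RPKM, and the receptor subunit Il3ra, at 7.39, 6.46 and 7.43 RPKM in the IRF8-deficient, 4T1-TB and NTB libraries.

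**Figure D2:**
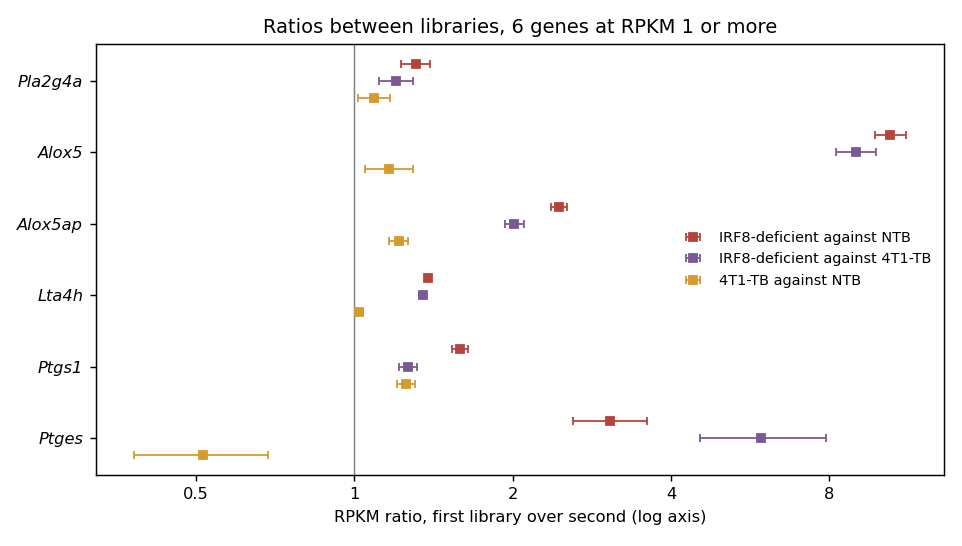
Ratio of levels between libraries (log axis) for the 6 genes at 1 RPKM or more in some library, with bars for the 95% interval of the reads. Alox5 is highest, at 10.5 for IRF8-deficient over NTB and 8.98 for IRF8-deficient over 4T1-TB, while its ratio for 4T1-TB over NTB is 1.16.

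To set the 10 genes against all others, differences were taken on the log2(RPKM + 1) scale, which understates the change of low genes, over the 10658 genes at 1 RPKM or more in at least 1 library. The call was set at a difference of at least 1 in size, which is 2-fold on that scale. Of the 10 enzymes 6 could be compared in this way. Ltc4s, Alox15, Ptgs2 and Hpgds were below the limit everywhere. The genes and lists were chosen with earlier results of these data known, so the shares and medians below are descriptions only. The NTB library serves both comparisons with NTB, and each library serves in 2 of the 3 comparisons, so they are not independent of each other.

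Between the IRF8-deficient and NTB libraries, Alox5, Alox5ap and Ptges were higher in the IRF8-deficient library and no gene of the 6 was lower. The share of all compared genes called higher was 8.78% and called lower 5.73%, so 14.5% were called in either direction. The differences were 3.23 for Alox5, 1.28 for Alox5ap and 1.15 for Ptges, with 65, 590 and 725 of the 10658 genes showing a larger one. Ptgs1 (0.66), Lta4h (0.46) and Pla2g4a (0.37) lay above 0 but were not called. The median of the 6 was 0.90, against -0.02 over all compared genes. Scaled by the summed recovered reads in place of the authors' library sizes, the median of all genes shifted by -0.49, and of the 3 calls that of Alox5 (2.71) remained, whereas Alox5ap (0.74) and Ptges (0.75) lost theirs and Lta4h (-0.09) and Pla2g4a (-0.15) changed sign. With a pseudocount of 5 in place of 1, Ptges lost its call. All 3 calls stayed with a pseudocount of 0.1, and when each library was scaled by its median gene ratio. The scaling by summed reads turned the 936 higher and 611 lower calls over all genes into 459 higher and 2018 lower, and leaving the 20 highest genes of each library out of the library size gave 733 higher and 894 lower.

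Between the IRF8-deficient and 4T1-TB libraries, the same 3 genes were called higher and none lower, where 8.83% of compared genes were called higher, 7.07% lower and 15.9% in either direction. The differences were 3.03 for Alox5, 1.64 for Ptges and 1.01 for Alox5ap, which thus passed by a small margin. Lta4h (0.43), Ptgs1 (0.34) and Pla2g4a (0.25) were not called. The median was 0.72, against -0.00 over all compared genes. Alox5ap lost its call when the 20 highest genes were left out of the library sizes and under scaling by summed reads (0.61). Neither it nor Ptges kept a call with a pseudocount of 5. With a pseudocount of 0.1, or scaling by the median gene ratio, all 3 genes kept their calls. Scaling by summed reads gave Ptgs1 -0.05 and Pla2g4a -0.13. It shifted the median of all genes by -0.34 and moved the 941 higher and 754 lower calls to 500 and 1595.

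Between the 4T1-TB and NTB libraries, none of the 6 genes was called, where 3.02% of all compared genes were, 1.67% higher and 1.35% lower. The differences ran from -0.49 for Ptges through Lta4h (0.03), Pla2g4a (0.12), Alox5 (0.20) and Alox5ap (0.28) to 0.32 for Ptgs1. The median was 0.16, against 0.01 over all compared genes. This comparison is within 1 strain, and its differences do not use the IRF8-deficient library. The set of 10658 genes behind the shares and the median does, since genes passed the filter through any library. Under scaling by summed reads Lta4h (-0.12) and Pla2g4a (-0.03) lay below 0, the median of all genes shifted by -0.14, and the 178 higher and 144 lower calls over all genes became 156 and 212.

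**Figure D3:**
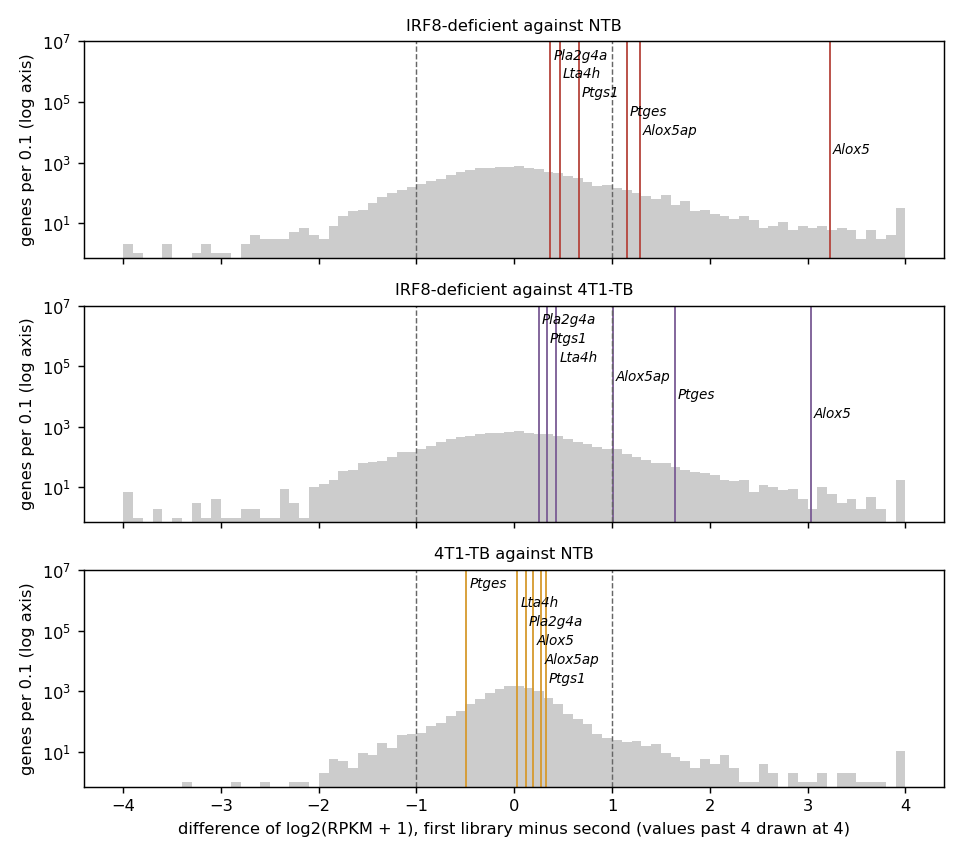
Differences of log2(RPKM + 1) for 10658 genes (grey, counts per bin of 0.1 on a log axis, values past 4 in size drawn at 4) with the 6 enzymes as lines in each of the 3 comparisons. Dashed lines mark the 2-fold call. Alox5 at 3.23 and 3.03 lies in the upper tail of both IRF8-deficient comparisons, and in the 4T1-TB comparison with NTB all 6 lie between -0.49 and 0.32.

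The genes that feed the pathway differed in both directions. Of 28 other phospholipase and arachidonate handling genes, 17 were compared and 6 were listed at 0 in all libraries. Between IRF8-deficient and NTB, 4 of the 17 were called higher (Acsl1, Lpcat2, Mgll, Pla2g7) and 3 lower (Fads1, Pla2g12a, Pla2g6), with a median of -0.29, where 8.78% of all compared genes were called higher and 5.73% lower. Between IRF8-deficient and 4T1-TB, 3 were called higher (Acsl1, Lpcat2, Mgll) and 5 lower (Acsl3, Fads1, Fads2, Pla2g12a, Pla2g7), with a median of -0.54, beside 8.83% and 7.07% of all compared genes. Fads2 passed the filter only through 4T1-TB, so it could only be called with 4T1-TB as the higher library. Between 4T1-TB and NTB, Pla2g7 alone was called, higher in 4T1-TB, and the median was 0.11, beside 1.67% of all compared genes called higher.

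Pla2g7, the hydrolase that breaks down platelet-activating factor, was at 2.58 RPKM in the IRF8-deficient, 12.6 RPKM in the 4T1-TB and 0.361 RPKM in the NTB library. It was 34.7-fold higher in 4T1-TB than in NTB (24.2 to 51.7), on 534 and 31 reads, which made 4T1-TB its high library, unlike Alox5. Mgll, the monoglyceride lipase that can supply arachidonate, stood at 7.71, 0.350 and 1.30 RPKM in the IRF8-deficient, 4T1-TB and NTB libraries. Lpcat2, an acyltransferase that makes platelet-activating factor, stood at 24.6, 9.60 and 4.73 RPKM in the same order. The desaturase Fads1, which makes arachidonic acid from its precursor fatty acid, went the other way, with 1.77 RPKM in the IRF8-deficient, 12.5 RPKM in the 4T1-TB and 7.57 RPKM in the NTB library. The secreted phospholipase Pla2g12a likewise was lowest in the IRF8-deficient library, at 2.56 RPKM, against 10.2 in 4T1-TB and 6.30 in NTB.

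Of 18 further lipoxygenase and leukotriene pathway genes, 8 were compared and 4 were listed at 0 in all libraries. Between IRF8-deficient and NTB, 4 of the 8 (Cotl1, Cyp4f18, Ggt5, Mgst1) were called higher and none lower (median 1.21), against 8.78% and 5.73% of all compared genes. Between IRF8-deficient and 4T1-TB, Cotl1, Mgst1 and Mgst2 were called higher and Ggt1 lower (median 0.61), against 8.83% and 7.07% of all. Between 4T1-TB and NTB, Cyp4f18 and Ggt1 were called higher (median 0.17), against 1.67% of all. Ggt1 passed the filter only through 4T1-TB, so it could only be called with 4T1-TB as the higher library. Cotl1, an actin-binding protein that binds 5-lipoxygenase, stood at 318 RPKM in the IRF8-deficient, 108 RPKM in the 4T1-TB and 104 RPKM in the NTB library, so 3.06-fold higher in IRF8-deficient than in NTB (2.97 to 3.14). Mgst1, a microsomal glutathione transferase, had the same shape, at 159, 41.0 and 47.3 RPKM in the IRF8-deficient, 4T1-TB and NTB libraries.

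Cyp4f18, the cytochrome that degrades leukotriene B4 in mouse neutrophils, was above NTB in both other libraries, at 7.13 RPKM in the IRF8-deficient and 4.95 RPKM in the 4T1-TB library, against 1.06 RPKM in the NTB library. The gamma-glutamyl transferase Ggt5, which turns leukotriene C4 into D4, stood at 2.89, 1.28 and 0.291 RPKM in the IRF8-deficient, 4T1-TB and NTB libraries. Its relative Ggt1 was highest in 4T1-TB, at 0.154, 1.51 and 0.0697 RPKM in the same order, with 7 reads in NTB.

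Few of the other prostanoid genes were called. Of 15, 9 were compared and 3 were listed at 0 in all libraries. None was called in either comparison with NTB, where the medians were 0.01 for IRF8-deficient and 0.02 for 4T1-TB. Of all compared genes 14.5% and 3.02% were called there. Ptges3 alone was called, lower, between IRF8-deficient and 4T1-TB (median -0.07), beside 15.9% of all. For a list of 9 genes these counts are near the shares of all genes. Between IRF8-deficient and NTB, Ptges3 (-0.76), Tbxas1 (-0.62) and Cbr1 (-0.59) lay below 0 without a call, and Ptges2 (0.28) and Ptgr2 (0.01) above. Ptges3, the cochaperone p23 that is also described as a cytosolic prostaglandin E2 synthase, was at 90.0 RPKM in the IRF8-deficient, 189 RPKM in the 4T1-TB and 153 RPKM in the NTB library, opposite in order to Ptges. The thromboxane synthase Tbxas1 was at 5.21, 5.99 and 8.54 RPKM in the IRF8-deficient, 4T1-TB and NTB libraries, and the membrane synthase Ptges2 at 8.18, 6.34 and 6.57 RPKM. The reductases Cbr1 (3.40, 6.21 and 5.64 RPKM) and Ptgr2 (12.4, 9.88 and 12.3 RPKM) also differed by less than 2-fold in every pair.

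Of 16 receptors for these lipids and the related lipoxins, 6 were compared and 2 were listed at 0 in all libraries. Fpr2, Ltb4r1 and Ptgir were called higher in IRF8-deficient than in NTB and than in 4T1-TB, none lower, and the median was 1.02 in both comparisons, where 8.78% and 8.83% of all compared genes were called higher. Between 4T1-TB and NTB, Fpr2 alone was called higher (median 0.19), against 1.67% of all. The leukotriene B4 receptor Ltb4r1 stood at 108 RPKM in the IRF8-deficient, 45.2 RPKM in the 4T1-TB and 48.9 RPKM in the NTB library. The lipoxin and formyl peptide receptor Fpr2 was at 102.8, 11.7 and 1.58 RPKM in the IRF8-deficient, 4T1-TB and NTB libraries. The prostacyclin receptor Ptgir was at 13.3, 5.47 and 4.09 RPKM, and the prostaglandin E2 receptors Ptger4 (7.86, 3.80 and 3.70 RPKM) and Ptger3 (0.133, 1.09 and 0.520 RPKM) were not called in any pair.

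**Figure D4:**
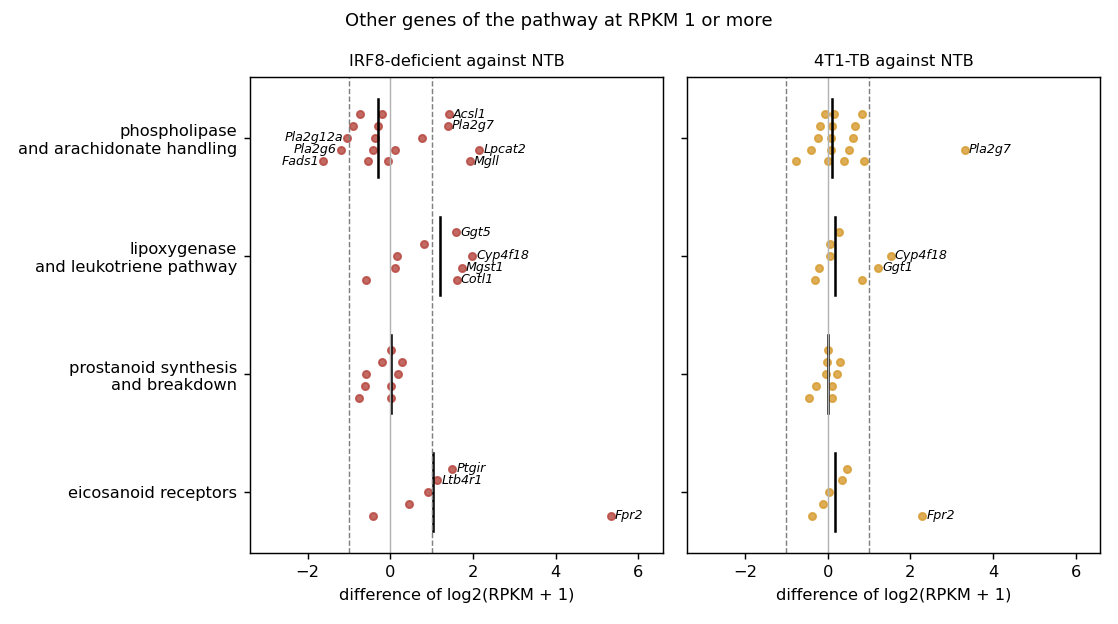
Differences of log2(RPKM + 1) of the other pathway genes at 1 RPKM or more, in 4 lists, for IRF8-deficient against NTB (left) and 4T1-TB against NTB (right), which share the NTB library. Points are genes, black bars list medians and dashed lines the 2-fold call, and called genes are named. The leukotriene list has a median of 1.21 on the left and 0.17 on the right, and the prostanoid list medians of 0.01 and 0.02.

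Most markers of mature neutrophils, cells known to express Alox5 and Alox5ap, were also highest in the IRF8-deficient library. Il1b, Clec4d, Clec4e, Il1r2 and Csf3r were instead highest in the 4T1-TB library, with Il1b at 3.41, 10.9 and 0.168 RPKM in the IRF8-deficient, 4T1-TB and NTB libraries. The 20 markers summed to 140004 RPKM in the IRF8-deficient, 14403 RPKM in the 4T1-TB and 10210 RPKM in the NTB library, and none was listed at 0 in any library. Most of each sum came from S100a8 and S100a9, at 49180 and 51478 RPKM in the IRF8-deficient library. The receptor Csf3r is also among the 9 progenitor markers. Between IRF8-deficient and NTB 16 of the 20 were called higher and none lower (median 3.54), beside 8.78% and 5.73% of all compared genes. Between IRF8-deficient and 4T1-TB 12 were higher and 1 lower (median 1.44), beside 8.83% and 7.07% of all. Ltf, the secondary granule lactoferrin, was at 4856 RPKM in the IRF8-deficient, 65.0 RPKM in the 4T1-TB and 75.2 RPKM in the NTB library, and Ly6g, the neutrophil surface antigen, at 84.3, 8.16 and 4.09 RPKM. The part of these cells or of Rn45s in the higher Alox5, Alox5ap and Ptges levels was not tested. In bulk RNA, fewer cells of a type and less RNA per cell cannot be told apart.

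Between 4T1-TB and NTB, 10 of the 20 neutrophil markers were called higher and none lower (median 1.01), beside 1.67% and 1.35% of all compared genes. None of the 6 synthesis genes was called, beside 3.02% of all in either direction. For a list of 6 genes that is near the share of all genes. The neutrophil markers differed in shape. Mmp9, the gelatinase of late neutrophils, was at 149 RPKM in the IRF8-deficient, 29.8 RPKM in the 4T1-TB and 1.91 RPKM in the NTB library. Camp (11611, 340 and 546 RPKM) and Ngp (16528, 424 and 632 RPKM in the same order) were instead lower in 4T1-TB than in NTB, as was Ltf. The 9 progenitor markers summed to 9995, 19661 and 16662 RPKM in the IRF8-deficient, 4T1-TB and NTB libraries. Of these, Cebpe was called higher and Cd34 lower between IRF8-deficient and NTB (median -0.61), beside 8.78% and 5.73% of all compared genes. For a list of 9 genes, 1 call each way is near these shares. Cd34 alone was called, lower, between 4T1-TB and NTB (median 0.32), beside 1.35% of all. Between IRF8-deficient and 4T1-TB 1 was called higher and 2 lower (median -0.60), beside 8.83% and 7.07% of all. The 12 monocyte and macrophage markers summed to 271 RPKM in the IRF8-deficient, 138 RPKM in the 4T1-TB and 266 RPKM in the NTB library. Of the 8 that could be compared, 1 was higher and 1 lower between IRF8-deficient and NTB (median -0.14). These counts too are near the 8.78% and 5.73% of all genes. Between IRF8-deficient and 4T1-TB 3 were higher and none lower (median 0.82), beside 8.83% and 7.07% of all. Between 4T1-TB and NTB 4 were lower and none higher (median -0.95), beside 1.35% and 1.67% of all.

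**Figure D5:**
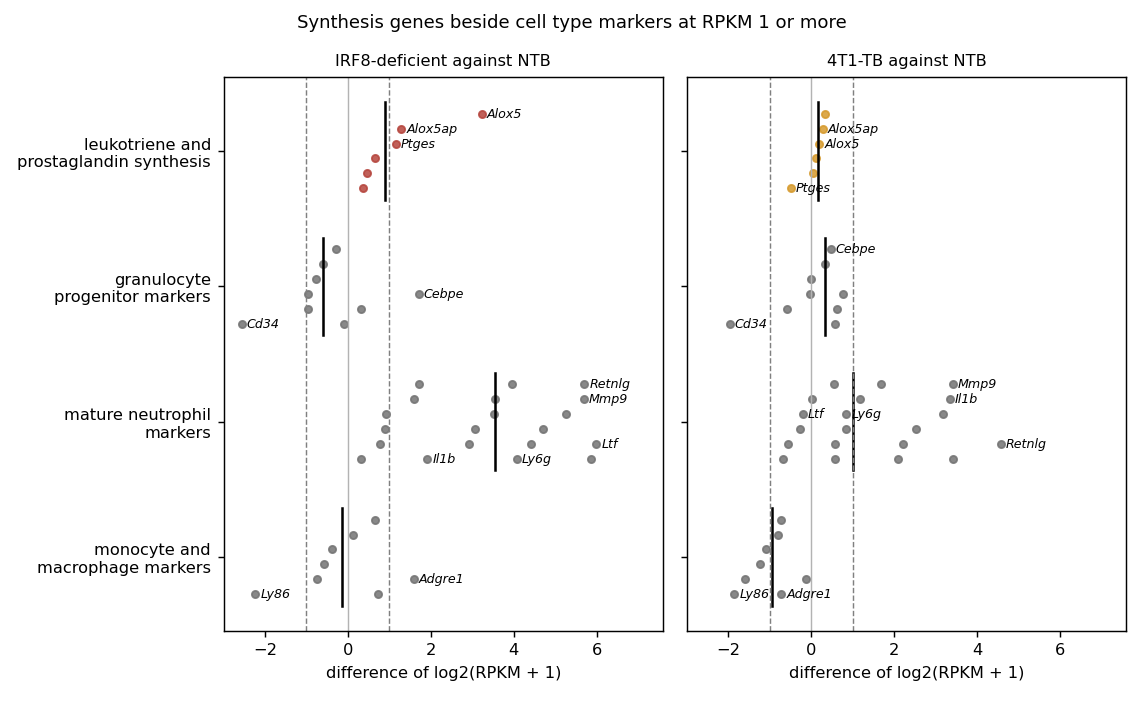
Differences of log2(RPKM + 1) of the 6 synthesis genes beside progenitor, mature neutrophil and monocyte markers, for IRF8-deficient against NTB (left) and 4T1-TB against NTB (right), which share the NTB library. Points are genes at 1 RPKM or more, black bars medians and dashed lines the 2-fold call. The neutrophil markers have a median of 3.54 on the left and 1.01 on the right, and the synthesis genes 0.90 and 0.16.

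For each called enzyme, the 3 genes of most similar profile were taken by Euclidean distance between log2(RPKM + 1) values, each centred on its own mean over the 3 libraries. With 3 points per gene many genes lie close, so the likeness is a description. Nearest to Alox5 was Xdh, the xanthine dehydrogenase, at 79.9 RPKM in the IRF8-deficient, 8.31 RPKM in the 4T1-TB and 7.43 RPKM in the NTB library (distance 0.062), followed by Rap1gap2 (0.13) and Ptms (0.14). Nearest to Alox5ap were the calpain Capn1 (0.015), Zdhhc2 (0.018) and the actin-bundling protein Lcp1 (0.019), with Lcp1 at 463, 229 and 192 RPKM in the IRF8-deficient, 4T1-TB and NTB libraries. Nearest to Ptges were the sodium channel subunit Scnn1a (0.028), Ankrd13d (0.029) and Mex3b (0.047).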

How the data were processed

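RNA from sorted granulocyte progenitors was measured in 3 libraries, 1 per group as named in the labels. The authors deposited RPKM for 24421 symbols in each library. Per the submitters' processing notes, the build was mm10 and the tools were edgeR 3.12.1, HTSeq 0.6.1, TopHat2 2.0.13, CASAVA 1.8.2, Picard 1.97 and cutadapt 1.2.1, with no role given. Not given in the sources used here are the annotation, filters, read length, strandedness and what the library sizes count.

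Ratios of a gene's RPKM between libraries were ratios of whole numbers, which gave back whole reads for 15106 of the 15158 genes above 0. A further 52 came from whole gene lengths. Of the implied lengths, 89.8% differed little from a reference exon length (GENCODE M21), the shorter being at least 0.8 times the longer. A common factor of low counts was chosen with that length, so counts of a few reads are the least certain. The implied library sizes were 0.722, 0.949 and 1.06 times the summed reads in the IRF8-deficient, 4T1-TB and NTB libraries, so RPKM relative to summed reads is scaled up in the IRF8-deficient library. An RPKM of 1 at the median implied length of 2875 bases was worth 75.1, 63.8 and 128.8 reads in the same order.

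Differences of log2(RPKM + 1) were taken over genes at 1 RPKM or more in 1 or more libraries and called at 1. Level intervals are exact Poisson and ratio intervals Clopper-Pearson, at 95%. The recovery and calls were tested on simulated data with counting error only and with changes larger than the call in well-expressed genes. That run says nothing on spread between mice, changes near the call or low genes such as Ptges. Alternatives were pseudocounts of 0.1 and 5, 3 other scalings, no filter and a filter at 5 RPKM. Sequences are from RefSeq. The text names all 10 genes, the 5 genes of each pathway list with the largest difference in any comparison, the 3 nearest profiles of each called gene, called genes of the pathway lists, and defining cell markers; Mgst2 was added after its values were seen. The 10 genes and the lists were chosen with earlier results of these data known. Computation used scipy 1.17.1, matplotlib 3.10.9, pandas 2.3.3 and numpy 2.4.6 under Python 3.11.15.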

Additional observations from a re-analysis of the deposited data

How the results depend on the processing

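No alternative reversed a count or a median of the 6 genes. Of the recomputed counts and medians 29 stayed close and 13, given here, moved, and of the recomputed differences of single genes 113 stayed close and 37 moved. A count going from 3 to 2 was held to stay close. A median or single difference was held to stay close where it shifted by less than its counting error. That is wide at few reads, so Ltc4s going from -0.29 to -1.30 (IRF8-deficient against 4T1-TB, pseudocount 0.1) was among those close. The count of 3 genes higher in IRF8-deficient than in NTB became 1 (Alox5) under scaling by summed reads, and that in IRF8-deficient against 4T1-TB became 1 (Alox5) with a pseudocount of 5. The cause was not tested. For IRF8-deficient against NTB the median of 0.90 became 0.59 with a pseudocount of 5, 0.76 without the 20 highest genes, 0.43 under summed reads, 0.42 with no filter (all 10 genes) and 0.66 at 5 RPKM. For IRF8-deficient against 4T1-TB the median of 0.72 became 0.57, 0.62, 0.33, 0.29 and 0.43 under the same settings. For 4T1-TB against NTB the median of 0.16 became 0.013 under summed reads. Leaving the 20 highest genes out shifted the median of all genes by -0.15 between IRF8-deficient and NTB. Over all genes, a pseudocount of 5 changed the calls in IRF8-deficient against NTB to 526 higher and 149 lower, in IRF8-deficient against 4T1-TB to 475 and 311, and in 4T1-TB against NTB to 65 and 21. A pseudocount of 0.1 changed the calls in IRF8-deficient against NTB to 1145 and 1071, and in 4T1-TB against NTB to 282 and 354. A filter at 5 RPKM changed those in 4T1-TB against NTB to 115 and 74. No paired analysis was possible because each group has 1 library. Ltc4s, Alox15, Ptgs2 and Hpgds, all under 1 RPKM, had 37 reads or fewer per library.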

Other observations

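Genes for platelet-activating factor and for a lipid-signalling annexin, picked after their values were seen, gave these levels. Ptafr, the receptor for platelet-activating factor, stood at 19.6 RPKM in the IRF8-deficient, 4.63 RPKM in the 4T1-TB and 2.33 RPKM in the NTB library, so 8.41-fold higher in IRF8-deficient than in NTB (counting interval 7.53 to 9.42). Anxa1, the annexin that binds Fpr2 and restrains phospholipase A2, stood at 1462 RPKM in the IRF8-deficient, 479 RPKM in the 4T1-TB and 176 RPKM in the NTB library. The ratio of 4T1-TB over NTB was 1.99 for Ptafr (1.72 to 2.30) and 2.72 for Anxa1 (2.65 to 2.78).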
